A study of Mus musculus with 36 samples.

Results

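The nuclear-encoded subunits of the respiratory chain were followed in RNA from cultured mouse microglia and astrocytes treated for 4 h. The members were taken by a rule on gene names, set with earlier results of these data known. It took gene symbols of the Nduf (complex I), Sdha to Sdhd (complex II), Uqcr (complex III) and Cox4 to Cox8 (complex IV) series that were listed in both deposited tables. This gave 62 genes of 13220 symbols shared by the tables: 36 of complex I, 4 of complex II, 8 of complex III, 13 of complex IV, where Ndufa4 is now placed, and Cox7a2l. Cox7a2l is known as a factor of supercomplexes of complexes III and IV, and its function in these cells was not tested. All but 1 are annotated as protein coding, and Ndufb4c is a processed pseudogene whose reads may be shared with Ndufb4.

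Complex I takes electrons from NADH and complex II, which is also the succinate dehydrogenase of the citric acid cycle, takes them from succinate. Both pass them through ubiquinone to complex III, then through cytochrome c to complex IV, which reduces oxygen, and complexes I, III and IV pump protons that drive ATP synthase. Most subunits are encoded in the nucleus and imported, while a small set of core subunits of complexes I, III and IV is made from mitochondrial DNA. Complex II is built from nuclear genes only.

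All cells came from C57BL/6 mice with no transgene, as pooled brains of pups 2 to 4 days old grown as mixed glia for 12 days. Microglia were selected by CD11b, and astrocytes by a further positive selection from the fraction left after that step. Each culture can still hold other glia. Microglia (24 libraries, 4 per treatment) received vehicle (DMSO), Nec-1s alone (N), which blocks the kinase RIPK1, or 1 of 2 stimuli with and without Nec-1s. The first stimulus was TNF plus 5z-7, a blocker of the kinase TAK1 (T/5z, and T/5z/N where Nec-1s was added), and the second was TNF plus a Smac mimetic plus zVAD, which blocks caspases (T/S/Z, and T/S/Z/N). Astrocytes (12 libraries, 3 per treatment) received the vehicle, N and the second stimulus in both forms. The first is used to set off apoptosis through RIPK1 and the second to set off necroptosis, so the comparisons ask which part of each response needs the kinase. A stimulus always combines several agents, and an effect of TNF alone cannot be told apart from that of its partners. Microglial and astrocyte libraries were made by different providers and scaled separately, so cell type and provider cannot be told apart and no test crossed the tables.

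Values are log2(FPKM + 1), where FPKM counts fragments per kilobase of exon, normalized to library size and scaled by the authors to a common 75th percentile. A difference is given on this log2 scale, and 0.58 on it is a 1.5-fold change. A gene passed the test when its limma adjusted p was under 0.05, and it was called when the change was also above 1.5-fold. In microglia the values of replicates 1 to 3 had been shifted for each gene to the mean of replicate 4, a step not described in the sources used here, which leaves differences within a replicate intact but can change the spread between replicates and the overlap of groups. All p-values measure the spread between these cultures. Of the members, 61 passed the filter on low values in microglia and 62 in astrocytes. The summed level of 10 microglial markers was 7437 to 9046 FPKM in the microglial libraries, where P2ry12, a marker of resting microglia, was among the low ones at 1.51 to 2.65 on the log2 scale. Astrocyte markers summed to only 8.72 to 10.8 FPKM in DMSO microglia, and to 14.9 to 26.4 with T/5z, up to 24.6 with T/S/Z and 6.15 to 7.29 with T/S/Z/N. Fibroblast markers summed to 6.66 to 9.10 FPKM in DMSO microglia, 12.7 to 21.7 with T/5z and 5.08 to 8.33 with T/S/Z, and endothelial markers to 4.46 to 5.80, 2.45 to 3.09 and 1.79 to 2.29. Oligodendrocyte lineage markers summed to 30.6 to 32.6, 25.6 to 29.6 and 27.5 to 37.7, where Olig1 was called higher with T/5z (0.75) and for T/S/Z (0.80) and Cspg4 lower with T/5z (-0.69) and higher for T/S/Z (0.70). Within the microglial sum, Cx3cr1 was called lower with T/5z (-1.59), as was P2ry12 (-0.61), and Tmem119 (1.58) and Ptprc (0.76) were called higher, and with T/S/Z only Ptprc (0.75) was called. The part of these changes in the members' results was not tested. In bulk RNA, fewer cells of a type and less RNA per cell cannot be told apart.

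Promoters are shown for members on which the results turn, chosen after their values were seen: 2 complex II genes that fell, Cox7a2l, which fell most, an abundant complex IV gene, and Ndufs4. With T/S/Z, Ndufs4 passed as higher in microglia and as lower in astrocytes, neither under every left-out replicate. The promoters are RefSeq sequences of build GRCm38.p6, 5′ to 3′ on the gene's strand, from 250 bases before to 50 bases after a transcription start, and 51 of the 62 members had one. Capitals mark matches, on either strand, to the palindromic core of the NRF1 motif, to CCGGAAG (bound by ETS factors such as GABP) or to AAGATGGCG (bound by YY1), 3 motifs known from promoters of mitochondrial genes. The ETS motif ends in the letters with which the YY1 motif begins, so these matches can overlap, but no member window held both.
Sdhb: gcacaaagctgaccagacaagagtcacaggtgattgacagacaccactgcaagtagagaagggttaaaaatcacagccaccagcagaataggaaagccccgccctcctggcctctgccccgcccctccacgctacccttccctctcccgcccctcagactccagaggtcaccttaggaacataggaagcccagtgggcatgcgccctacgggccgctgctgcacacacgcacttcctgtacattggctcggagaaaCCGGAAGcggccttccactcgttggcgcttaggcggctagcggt
Sdhd: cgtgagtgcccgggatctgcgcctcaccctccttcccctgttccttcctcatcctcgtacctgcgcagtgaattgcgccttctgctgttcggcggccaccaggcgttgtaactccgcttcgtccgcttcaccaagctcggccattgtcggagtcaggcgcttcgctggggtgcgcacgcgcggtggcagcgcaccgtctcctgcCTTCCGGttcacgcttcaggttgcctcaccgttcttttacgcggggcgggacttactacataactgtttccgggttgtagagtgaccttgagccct
Cox7a2l: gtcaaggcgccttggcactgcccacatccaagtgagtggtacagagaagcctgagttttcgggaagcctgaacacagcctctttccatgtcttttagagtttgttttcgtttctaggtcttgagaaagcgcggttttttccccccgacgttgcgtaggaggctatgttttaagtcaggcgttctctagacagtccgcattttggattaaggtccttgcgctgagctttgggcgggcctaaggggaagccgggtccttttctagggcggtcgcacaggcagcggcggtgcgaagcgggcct
Cox6a1: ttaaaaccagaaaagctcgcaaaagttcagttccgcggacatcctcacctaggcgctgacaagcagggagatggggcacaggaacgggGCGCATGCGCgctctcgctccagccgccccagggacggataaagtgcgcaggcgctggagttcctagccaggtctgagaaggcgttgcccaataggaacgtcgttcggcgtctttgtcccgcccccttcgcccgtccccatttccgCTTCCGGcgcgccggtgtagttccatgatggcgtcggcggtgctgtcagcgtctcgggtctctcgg
Ndufs4: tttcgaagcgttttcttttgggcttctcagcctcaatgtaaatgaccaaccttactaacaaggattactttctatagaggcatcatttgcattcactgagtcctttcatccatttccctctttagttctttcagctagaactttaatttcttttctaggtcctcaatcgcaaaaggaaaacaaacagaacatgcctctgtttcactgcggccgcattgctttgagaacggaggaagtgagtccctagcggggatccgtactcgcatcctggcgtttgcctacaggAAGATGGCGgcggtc
These windows lie at chr4:140961021-140961320 (plus strand), chr9:50603800-50604099 (minus strand), chr17:83514284-83514583 (minus strand), chr5:115348909-115349208 (minus strand) and chr13:114388045-114388344 (minus strand), which are intervals around an annotated start. The genes themselves span 4:140961203-140979193 (Sdhb, ENSMUSG00000009863), 9:50596357-50603812 (Sdhd, ENSMUSG00000000171), 17:83501918-83517330 (Cox7a2l, ENSMUSG00000024248), 5:115345642-115348981 (Cox6a1, ENSMUSG00000041697) and 13:114287795-114388258 (Ndufs4, ENSMUSG00000021764) in GENCODE vM21 on GRCm38. The Cox7a2l window lies inside that span, since the RefSeq start used is downstream of the outermost GENCODE start, and the other windows reach beyond the gene's 5′ end. The ETS motif stood at positions 7 to 13 after the start in Sdhb and, on the opposite strand, at -46 to -40 in Sdhd and -16 to -10 in Cox6a1. Cox6a1 also held the NRF1 motif at -162 to -153, Ndufs4 held the YY1 motif at 36 to 44, and the Cox7a2l window held none of the 3. Among the 51 members with a window, 11 held the ETS motif (21.6%, against 8.86% of all 32851 windows), 5 the YY1 motif (9.8% against 1.4%) and 3 the NRF1 motif (5.88% against 0.971%). The 5 genes with the YY1 motif, Ndufa9, Ndufc1, Ndufs4, Ndufs6 and Ndufs7, all encode complex I subunits, which make up 31 of the 51 members with a window. A match is a run of letters and was not tested as a binding site.

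In DMSO microglia the members were among the abundant transcripts. Cox4i1, a subunit of the complex IV core assembly that is present in most tissues, was highest at 8.76, followed by Cox6a1 at 8.27 and Cox8a at 7.76. Complex IV genes took 6 of the 7 highest places, with Cox7a2l among them at 7.52. At the other end stood the tissue-restricted isoforms: Cox7a1, known from heart and skeletal muscle, was at 1.64, and Cox6b2, known from testis, was at 0.21 and failed the filter. Astrocytes also had complex IV genes highest (Cox6c 8.43, Cox4i1 8.27, Cox6b1 8.17) and Cox7a1 lowest (3.40). The astrocyte levels are on that table's own scale.

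On the deposited scale, neither stimulus moved a single member past 1.5-fold in microglia by limma. The count was 0 of 61 for T/5z, where 24.4% of the 10524 genes tested were called, and 0 of 61 for T/S/Z, where 29.6% were called. After quantile normalization Cox7a2l was called for T/5z, and Cox7a2l, Cox7a1 and Sdhb for T/S/Z, and without replicate 4 Cox7a1 was called for T/S/Z. With an unadjusted p under 0.05 it was also 0 past 1.5-fold, and 24 and 34 at any fold. At any fold the members did move in part: with T/5z 11 passed the test as higher and 9 as lower (background 27.4% higher and 36.8% lower), and with T/S/Z 26 as higher and 7 as lower (background 30.3% and 41.1%). Leaving out 1 replicate at a time gave 2 to 13 higher and 3 to 7 lower with T/5z, and 20 to 24 higher and 5 to 7 lower with T/S/Z. For T/5z the counts fell by over 1.5 times without replicate 1 (7 and 4), without replicate 2 (3 and 3) and, for the higher genes, without replicate 3 (2).

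The direction of the small rises depended on the scaling. After quantile normalization, which forces every library to the same distribution, the counts became 2 higher and 24 lower for T/5z and 6 higher and 30 lower for T/S/Z. After centring each library on its median they became 20 higher and 3 lower, and 32 higher and 2 lower. The upper end of the distribution moved with the treatments: the 99th percentile averaged 9.10 in DMSO, 9.25 with T/5z, 9.47 with T/S/Z and 9.21 with T/S/Z/N. Among all tested genes at a DMSO level of 7 to 8, the median T/S/Z change was 0.19, against 0.25 for the 4 members there, and at 6 to 7 it was 0.08, against 0.14 for 24 members. Whether the members' rises are part of that shift was not tested. Results are therefore given on the deposited scale with the quantile-normalized value beside them where it differs in direction.

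**Figure D1:**
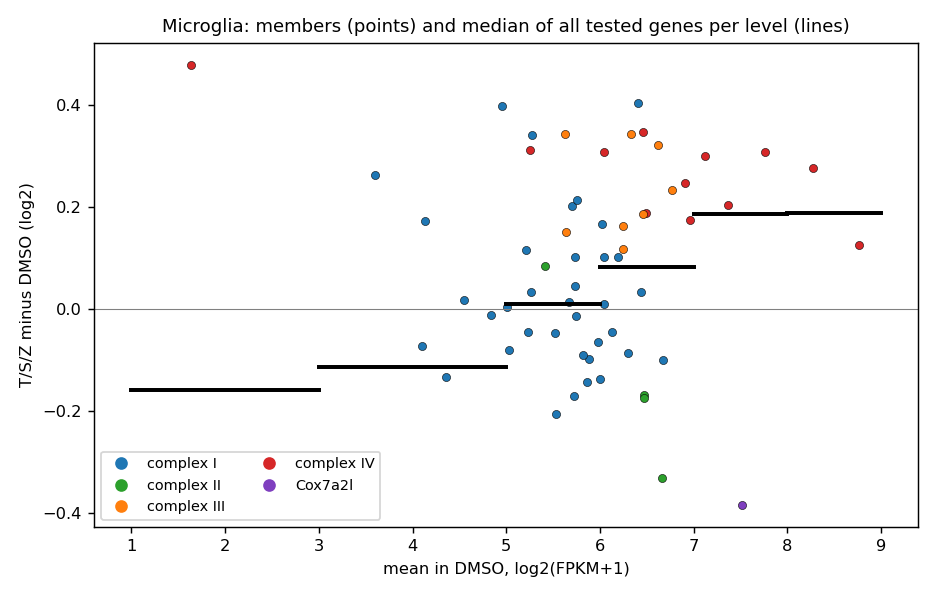
T/S/Z minus DMSO in microglia (log2, y axis) against the mean level in DMSO (log2(FPKM + 1), x axis). Points are the 61 tested members coloured by complex, and black lines are medians of all tested genes per level class, the first and last class being open-ended. All genes rise from a median of -0.16 below level 3 to 0.19 above 7, and most complex III and IV genes lie near or above these lines, a rise that mostly turned into a fall after quantile normalization. Cox7a2l and Sdhb lie furthest below the lines. Sdha and Sdhd lie less far below, as do complex I genes such as Ndufs3, Ndufb10 and Ndufv3.

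The medians differed between complexes on the deposited scale, and no test compared them. With T/S/Z the median change was -0.17 over 4 complex II genes, 0.01 over 36 of complex I, 0.21 over 8 of complex III and 0.29 over 12 of complex IV, beside -0.08 over all genes tested. Quantile normalization moved these to -0.42, -0.14, -0.06 and -0.13, so the medians of complexes III and IV turned to below 0 and lay near that of complex I, while complex II stayed lowest. With T/5z the medians were -0.18, -0.02, 0.07 and 0.15, beside -0.06 over all genes, and after quantile normalization -0.38, -0.12, -0.08 and -0.05. Over all members, the median of each replicate pair ran from 0.07 to 0.13 with T/S/Z and from -0.08 to 0.12 with T/5z.

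**Figure D2:**
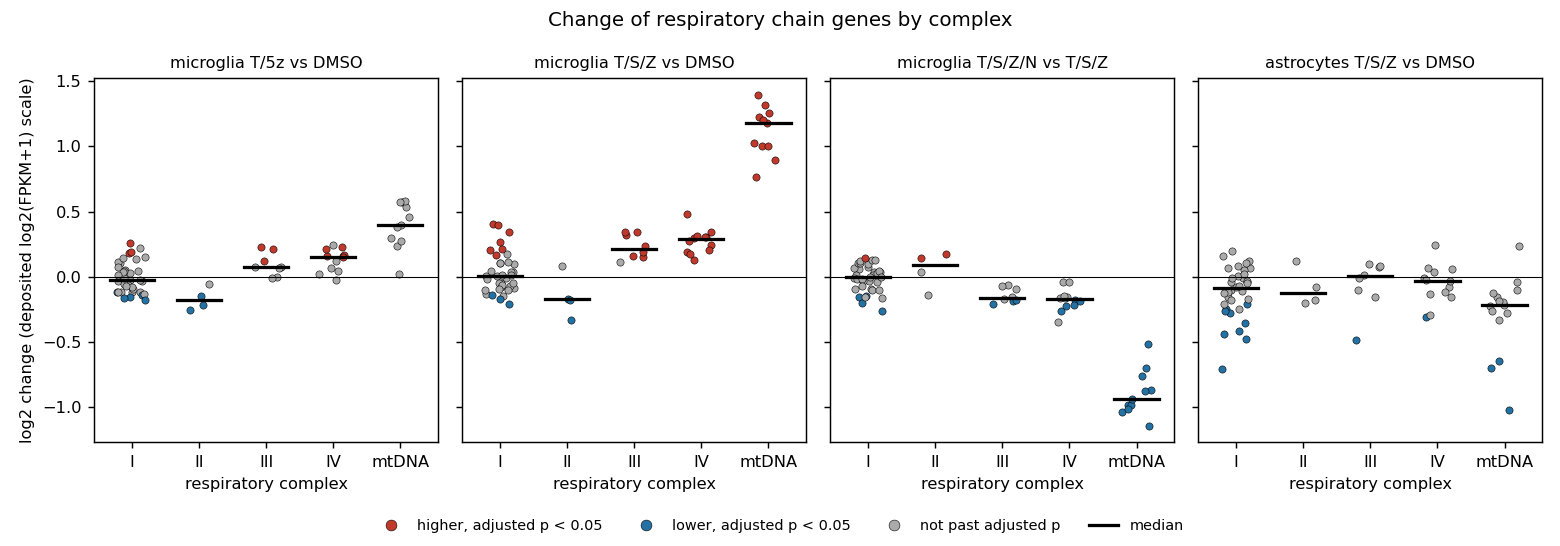
Log2 change (y axis) of each tested gene in 4 comparisons, by respiratory complex (x axis) and for genes of the mitochondrial DNA (mtDNA). Red and blue points passed the limma adjusted p as higher or lower, grey points did not, and black bars are medians; Cox7a2l is left out. On the deposited scale 12 of 12 complex IV genes were higher with T/S/Z, 8 of which turned lower after quantile normalization, while 3 of 4 complex II genes were lower on both scales and the 11 mtDNA transcripts ran from 0.76 to 1.39 with T/S/Z. Over all genes tested, 30.3% passed as higher and 41.1% as lower with T/S/Z on the deposited scale.

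Cox7a2l fell most. Its 4 DMSO libraries read 7.47, 7.48, 7.58 and 7.53 and its 4 N libraries 7.49, 7.53, 7.56 and 7.52. With T/5z it read 6.92, 6.95, 7.02 and 7.05, and with T/S/Z 7.12, 7.09, 7.17 and 7.15. Every library of either stimulus lay below every DMSO library. The fall was 0.53 ± 0.041 (SE, limma adjusted p = 3.98e-05) with T/5z and 0.38 ± 0.043 (SE, limma adjusted p = 0.000119) with T/S/Z. Both falls passed the test under every scaling, filter, variance and left-out replicate tried, and after quantile normalization they were -0.79 and -0.78, past 1.5-fold. With Nec-1s the libraries returned to 7.53, 7.46, 7.41 and 7.48 beside T/5z and to 7.53, 7.56, 7.33 and 7.34 beside T/S/Z. The Nec-1s libraries did not overlap those of the stimulus alone, and the differences were 0.48 ± 0.047 (SE, limma adjusted p = 0.000107) and 0.31 ± 0.064 (SE, limma adjusted p = 0.00424). When the variance of each gene was taken alone, without moderation, the second of these had an adjusted p of 0.0598.

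Of the 4 complex II genes 3 fell like Cox7a2l, and Sdhc did not pass with either stimulus. Sdhb, the iron-sulphur subunit, read 6.65, 6.64, 6.63 and 6.72 in DMSO, 6.40, 6.42, 6.49 and 6.46 with T/5z and 6.29, 6.37, 6.27 and 6.38 with T/S/Z. The groups did not overlap, and the falls were 0.22 ± 0.044 (SE, limma adjusted p = 0.00414) and 0.33 ± 0.046 (SE, limma adjusted p = 0.000373). Sdhd, which anchors the complex in the membrane, read 6.42, 6.49, 6.49 and 6.47 in DMSO, 6.18, 6.15, 6.31 and 6.21 with T/5z and 6.32, 6.27, 6.25 and 6.33 with T/S/Z. It too was lower in every stimulated library, by 0.25 ± 0.046 (SE, limma adjusted p = 0.00259) and 0.18 ± 0.049 (SE, limma adjusted p = 0.0129). Sdha, the flavoprotein subunit, read 6.47, 6.48, 6.47 and 6.44 in DMSO and 6.32, 6.28, 6.30 and 6.28 with T/S/Z, and it fell by 0.15 ± 0.047 (SE, limma adjusted p = 0.0294) with T/5z and 0.17 ± 0.045 (SE, limma adjusted p = 0.0108) with T/S/Z. Sdhc, the other anchor, overlapped DMSO with both, at -0.05 ± 0.055 (SE, limma adjusted p = 0.415) and 0.08 ± 0.069 (SE, limma adjusted p = 0.303). The falls of Sdhb passed under every scaling and left-out replicate tried, as did that of Sdhd with T/5z. Those of Sdha with both stimuli and of Sdhd with T/S/Z lost the test after median centring (-0.08, -0.07 and -0.08). Without replicate 2 the T/S/Z adjusted p was 0.0547 for Sdha and 0.0623 for Sdhd, and Sdha with T/5z passed only when all replicates or all but replicate 4 were used.

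**Figure D3:**
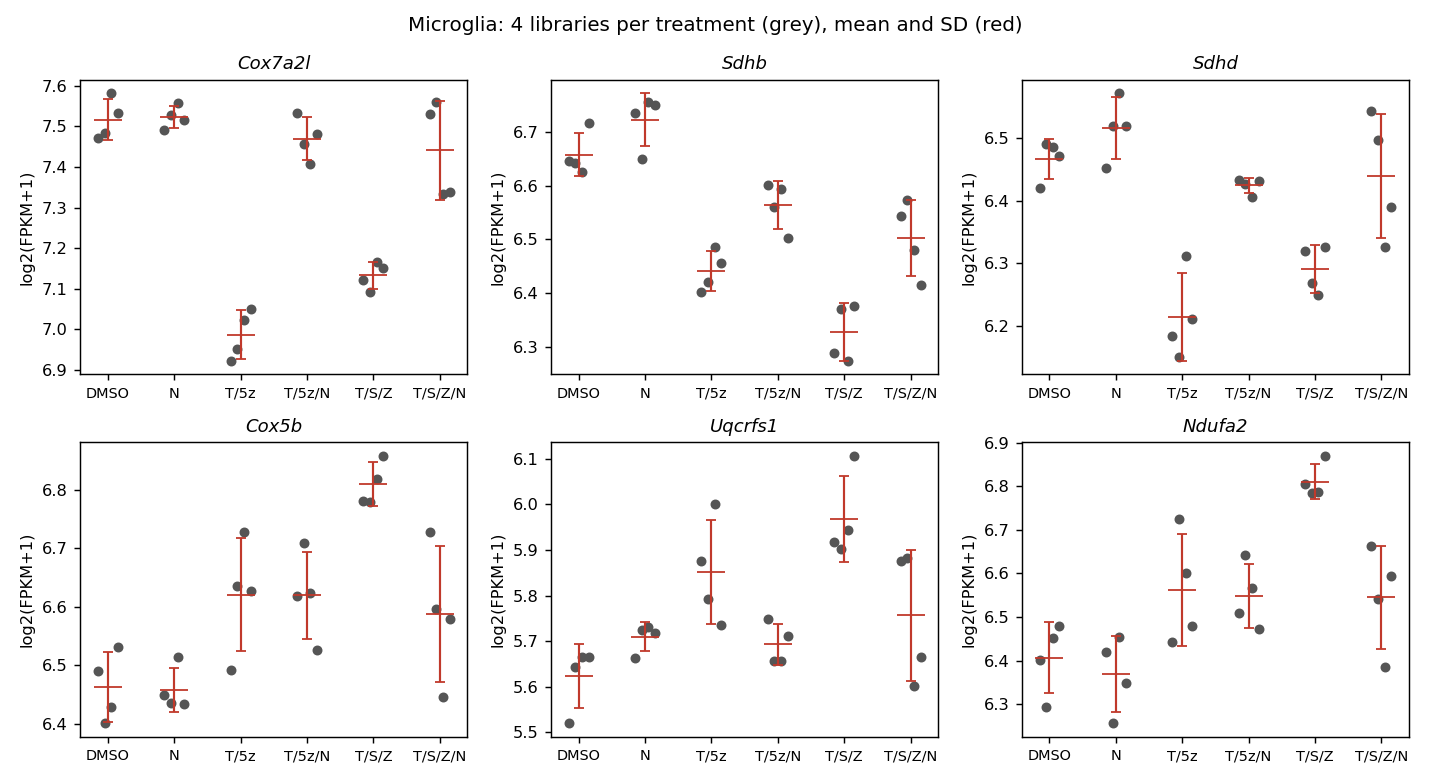
Level (log2(FPKM + 1), y axis, not starting at 0) of 6 members in the 24 microglial libraries by treatment (x axis), with grey points for libraries and red bars for the mean and SD of 4. Cox7a2l, Sdhb and Sdhd lie lower in every T/5z and T/S/Z library than in every DMSO library, while Cox5b, Uqcrfs1 and Ndufa2 lie higher with T/S/Z on the deposited scale, a rise that shrank to 0.05, 0.15 and 0.11 after quantile normalization.

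In complex III, Uqcrfs1, the Rieske iron-sulphur protein, read 5.52, 5.64, 5.67 and 5.66 in DMSO, 5.88, 5.79, 6.00 and 5.74 with T/5z and 5.92, 5.90, 5.94 and 6.11 with T/S/Z. Both stimulated groups lay wholly above DMSO, by 0.23 ± 0.062 (SE, limma adjusted p = 0.0148) and 0.34 ± 0.054 (SE, limma adjusted p = 0.000729). After quantile normalization the rises were 0.11, which lost the test, and 0.15, which kept it. Uqcrb, a small subunit of the ubiquinone-binding site, rose by 0.34 ± 0.066 (SE, limma adjusted p = 0.00207) with T/S/Z, and by 0.06 without passing after quantile normalization. Uqcrh, the hinge protein that meets cytochrome c1, read 6.80, 6.72, 6.76 and 6.80 in DMSO and 6.98, 6.97, 7.02 and 7.05 with T/S/Z, 0.23 ± 0.045 (SE, limma adjusted p = 0.00216), and turned to -0.12 after quantile normalization. The core proteins Uqcrc1 and Uqcrc2 were higher by 0.19 and 0.15 with T/S/Z on the deposited scale and stood at -0.11 and -0.03 on the quantile-normalized one. In all, 7 of 8 complex III genes passed as higher with T/S/Z on the deposited scale, 6 of them without overlap with DMSO (background 29.2%), and 3 with T/5z, but 5 of the 7 turned to lower after quantile normalization. The remaining gene, Uqcr10, was at 0.12 ± 0.058 (SE, limma adjusted p = 0.107), and at -0.13 without passing after quantile normalization. The T/S/Z rises of Uqcrfs1, Uqcrb and Uqcrh passed without any 1 replicate, while the T/5z rise of Uqcrfs1 lost the test without replicate 1 or 3 (adjusted p of 0.0639 and 0.0646).

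In complex IV, all 12 tested genes passed as higher with T/S/Z on the deposited scale, of which 8 (Cox4i1, Cox5a, Cox6a1, Cox6b1, Cox6c, Cox7c, Cox8a and Ndufa4) turned to lower after quantile normalization. Cox5b, a regulatory subunit, read 6.49, 6.40, 6.43 and 6.53 in DMSO and 6.78, 6.78, 6.82 and 6.86 with T/S/Z, with no overlap, 0.35 ± 0.046 (SE, limma adjusted p = 0.000299), and 0.05 without passing after quantile normalization. Cox7b read 5.26, 5.24, 5.26 and 5.24 in DMSO and 5.49, 5.54, 5.56 and 5.65 with T/S/Z. It was higher by 0.31 ± 0.054 (SE, limma adjusted p = 0.00118) and still passed after quantile normalization at 0.16. The largest rise of any member was in the muscle isoform Cox7a1, 0.48 ± 0.11 (SE, limma adjusted p = 0.00445), from 1.66, 1.69, 1.38 and 1.83 to 2.37, 2.23, 1.93 and 1.94. It is the lowest of the members tested, and its T/S/Z rise was 0.71 after quantile normalization. The T/S/Z rises of Cox5b, Cox7b and Cox7a1 passed without any 1 replicate, that of Cox4i1 lost the test without replicate 1, 2 or 3, and that of Ndufa4 without replicate 1 or 4. With T/5z, 5 complex IV genes passed as higher, led by Cox7a2 at 0.23 and Cox5a at 0.22, of which 4 (Cox5a, Cox6a1, Cox6c and Ndufa4) turned to lower after quantile normalization, Cox5a to -0.04. Ndufa4, once counted with complex I and now with complex IV, was at 0.15 and 0.19 on the deposited scale and at -0.04 and -0.11 on the other. Cox4i1 was at 0.02 ± 0.056 (SE, limma adjusted p = 0.782) with T/5z and 0.13 ± 0.046 (SE, limma adjusted p = 0.0393) with T/S/Z, and after quantile normalization at -0.21 and -0.31.

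Most complex I genes did not pass the test. With T/S/Z, 7 of 36 genes passed as higher, of which Ndufa1 turned to -0.05 after quantile normalization, and 3 as lower, and with T/5z 3 passed as higher and 5 as lower. Over all genes tested 30.3% passed as higher and 41.1% as lower with T/S/Z, and 27.4% and 36.8% with T/5z. Ndufa2, an accessory subunit, read 6.40, 6.29, 6.45 and 6.48 in DMSO and 6.80, 6.78, 6.79 and 6.87 with T/S/Z. The groups did not overlap, and the rise was 0.40 ± 0.048 (SE, limma adjusted p = 0.000168), or 0.11 without passing after quantile normalization. Ndufb2 and Ndufb6, subunits of the membrane arm, rose by 0.40 ± 0.088 (SE, limma adjusted p = 0.00428) and 0.34 ± 0.074 (SE, limma adjusted p = 0.00387), and both still passed after quantile normalization at 0.29 and 0.19. Ndufs3, a core subunit of the peripheral arm, fell from 5.52, 5.51, 5.53 and 5.59 in DMSO to 5.30, 5.35, 5.45 and 5.32 with T/5z and to 5.33, 5.33, 5.27 and 5.39 with T/S/Z. Those falls were 0.18 ± 0.050 (SE, limma adjusted p = 0.0168) and 0.21 ± 0.049 (SE, limma adjusted p = 0.00606), and both lost the test after median centring (-0.11 and -0.11), the T/5z one also without replicate 1 or 2. Ndufs4, an accessory subunit of that arm, read 3.80, 3.56, 3.60 and 3.43 in DMSO and 3.90, 3.82, 3.77 and 3.95 with T/S/Z, 0.26 ± 0.080 (SE, limma adjusted p = 0.0186), a rise that lost the test without replicate 2 or 4. The 7 core subunits had a median of -0.09 with T/S/Z and -0.11 with T/5z, and none of the 7 was above 0 with T/S/Z. Among them Ndufv1, the NADH-binding subunit, was at -0.05 ± 0.076 (SE, limma adjusted p = 0.608) and Ndufs1 at -0.13 ± 0.065 (SE, limma adjusted p = 0.1) with T/S/Z, and neither passed. Their T/5z values were -0.11 and -0.03.

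Both stimuli were compared with the same DMSO libraries, so their member lists are not independent, and what they share is not read as a result. Ndufv3, a lower gene of both lists not yet described, was at -0.12 with T/5z and -0.17 for T/S/Z. In the direct comparison of T/S/Z with T/5z, 0 of 61 members were called (background 9.83%), and 9 passed as higher and 0 as lower at any fold (18.7% and 21.4%). The largest were Cox7c at 0.25, Ndufa2 at 0.25 and Uqcrq at 0.25, none of which passed after quantile normalization (0.09, 0.13 and 0.12). Cox7a2l was higher with T/S/Z than with T/5z by 0.15, a difference of 0.0042 after quantile normalization, and it lost the test when any 1 replicate was left out.

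Nec-1s on its own moved no member past the limma test: 0 of 61 passed at any fold (background 0% in either direction), and 5 had an unadjusted p under 0.05. Added to T/5z, Nec-1s gave 0 called members (background 7.16%), and 8 passed as higher and 1 as lower at any fold (27.3% and 21.1%). The higher genes were led by Cox7a2l (0.48), Sdhd (0.21) and Ndufs8 (0.16), with Sdhb at 0.12 ± 0.041 (SE, limma adjusted p = 0.035), and the lower gene was Uqcrfs1, -0.16 ± 0.054 (SE, limma adjusted p = 0.0419). Added to T/S/Z, it gave 0 called members (background 12.1%), with 4 higher and 12 lower at any fold (34.1% and 23.8%). The 4 higher genes were Cox7a2l, Sdhb (0.18), Sdhd (0.15) and Ndufs3 (0.14). Sdhb read 6.60, 6.56, 6.59 and 6.50 with T/5z/N and 6.54, 6.57, 6.48 and 6.41 with T/S/Z/N, above every library of the stimulus alone and below every DMSO library. These differences of Sdhb lost the test after median centring (0.08 and 0.10) and without replicate 1, 2 or 3 in both comparisons, with adjusted p of 0.0541 to 0.153. That of Sdhd after T/S/Z did so too, at 0.07 and with 0.0555 to 0.133, and those of Ndufs3 without replicate 1 or 2. The 12 lower genes were led by Ndufa2, -0.27 ± 0.052 (SE, limma adjusted p = 0.00329), Cox6c at -0.26 and Cox5b at -0.22.

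Those falls under Nec-1s shared the dependence on scale. After quantile normalization Nec-1s with T/S/Z gave 21 higher and 1 lower members, and with T/5z 33 higher and 0 lower. On that scale 56.8% and 48.8% of all genes tested passed in either direction, shares not split by direction here. Without replicate 3 only 1 member was higher and 1 lower with T/S/Z/N against T/S/Z, without replicate 2 the counts were 1 and 10, without replicate 1 they were 1 and 18, and without replicate 4 they were 6 and 4. For T/5z/N against T/5z the counts were 2 and 0 without replicate 1 and without replicate 2, and 15 and 0 without replicate 3. The median over members in the T/S/Z/N pairs was 0.07, -0.01, -0.17 and -0.13 in replicates 1 to 4.

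A member that passed with the stimulus and passed in the opposite direction when Nec-1s was added was counted as sensitive to Nec-1s. Both comparisons use the same libraries of the stimulus alone, with opposite sign. For T/5z these were 5 members, Cox7a2l, Ndufs3, Sdhb and Sdhd, which fell and came back, and Uqcrfs1, which rose and came down. For T/S/Z there were 13: Cox7a2l, Ndufs3, Sdhb and Sdhd, which fell, and Cox5b, Cox6b1, Cox6c, Cox7b, Cox8a, Ndufa2, Uqcrb, Uqcrfs1 and Uqcrh, which rose on the deposited scale, 4 of them (Cox6b1, Cox6c, Cox8a and Uqcrh) turning to lower after quantile normalization. This is 8.20% and 21.3% of the members tested, against 40.6% and 45.8% of all genes tested. Members that were still changed against DMSO with Nec-1s were Cox5a, Ndufb2 and Ndufb6 for T/5z and Ndufs4 for T/S/Z, which is 4.92% and 1.64% of the members tested, against 35.9% and 37.9% of all genes tested. Against DMSO, 0 members were called with T/5z/N (background 12.8%) or T/S/Z/N (14.1%), and 5 and 1 passed as higher at any fold (18.2% and 20.3%) and 0 as lower (22.3% and 25.7%).

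Whether Nec-1s acted differently after the stimuli was tested as an interaction. No member was called (background 6.47%), and 2 passed as higher and 0 as lower at any fold (11.1% and 14.8%). The effect of Nec-1s was more positive with T/5z than with T/S/Z for Uqcr11, a small complex III subunit, by 0.24 ± 0.084 (SE, limma adjusted p = 0.0485), and for Cox6b1 by 0.23 ± 0.076 (SE, limma adjusted p = 0.0383). Cox6b1 read 7.26, 7.38, 7.40 and 7.32 with T/5z and 7.34, 7.38, 7.39 and 7.31 with T/5z/N, and 7.56, 7.50, 7.55 and 7.67 with T/S/Z and 7.45, 7.35, 7.22 and 7.37 with T/S/Z/N. Neither interaction passed after quantile normalization (0.19 and 0.08), nor without replicate 2, 3 or 4, and that of Cox6b1 not without replicate 1 either.

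Other genes of the pathway were read from fixed lists. The 17 ATP synthase genes had medians on the deposited scale of 0.16 and 0.19 for T/5z and T/S/Z, with 8 and 13 higher (background 27.4% and 30.3%), 0 lower and 0 called, and after quantile normalization medians of -0.08 and -0.10, with 0 higher in either and 5 and 7 lower. Of 44 assembly factors, which build the complexes and are not part of them, T/5z called 4 and T/S/Z called 9, which is 9.09% and 20.5% beside a background of 24.4% and 29.6% of all genes tested. At any fold 6 were higher and 15 lower with T/5z and 8 and 18 with T/S/Z, and after quantile normalization 11 and 7 with T/5z and 14 and 13 with T/S/Z. Ndufaf7, which modifies a core complex I subunit, was lower with T/5z and T/S/Z, at -1.11 ± 0.12 (SE, limma adjusted p = 0.000188) and -1.22 ± 0.12 (SE, limma adjusted p = 5.4e-05). Sdhaf1, which helps to insert the iron-sulphur clusters of Sdhb, was higher with T/5z by 1.05 ± 0.064 (SE, limma adjusted p = 1.23e-05), while Sdhb itself was lower, and Ttc19, a complex III factor, was higher with T/S/Z by 0.90 ± 0.095 (SE, limma adjusted p = 8.81e-05). The 16 electron carrier genes had medians of -0.11 and -0.02 for T/5z and T/S/Z, or -0.02 and 0.09 after quantile normalization. Of them 2 and 3 were called, which is 12.5% and 18.8% beside the background of 24.4% and 29.6%. Cycs, which encodes cytochrome c, was higher by 0.63 ± 0.084 (SE, limma adjusted p = 0.000545) and 0.84 ± 0.11 (SE, limma adjusted p = 0.000241), and Coq10b, a ubiquinone-binding protein, by 0.93 ± 0.13 (SE, limma adjusted p = 0.000349) with T/S/Z. In the other direction, Coq10a, the paralogue of Coq10b, was lower with T/5z at -0.75 ± 0.062 (SE, limma adjusted p = 5.07e-05), and Coq9, which takes part in ubiquinone synthesis, was lower with T/S/Z at -0.76 ± 0.086 (SE, limma adjusted p = 0.00013). Of 17 genes of the citric acid cycle, 1 was called with T/5z (Dld, 0.60), and 0 were called with T/5z after quantile normalization. With T/S/Z 0 were called, and 8 were higher and 4 lower at any fold by limma, or 4 and 4 after quantile normalization. That scaling moved the list's T/S/Z median from 0.11 to -0.03. The 79 cytosolic ribosome genes, another group of short and abundant transcripts, had a median of 0.20 with T/S/Z, 70 higher at any fold and 0 called, and after quantile normalization a median of -0.20, 4 higher and 59 lower. The 78 mitochondrial ribosome genes had a median of -0.02, or 0.0066 after quantile normalization.

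Of 12 regulators of the nuclear genes, T/5z called 2 and T/S/Z called 3 (16.7% and 25%, beside the background of 24.4% and 29.6%). Gabpb1, the partner of the ETS factor Gabpa, was higher by 1.40 ± 0.062 (SE, limma adjusted p = 3.32e-06) with T/5z and 1.49 ± 0.066 (SE, limma adjusted p = 1.07e-06) with T/S/Z, and Esrra by 0.81 ± 0.075 (SE, limma adjusted p = 9.47e-05) and 0.63 ± 0.069 (SE, limma adjusted p = 0.000105). Gabpa itself was at 0.42 and 0.45, Nrf1 at 0.42 and 0.50 and Pprc1 at 0.44 and 0.50, all past the adjusted p and below 1.5-fold. Tfam, which packs and transcribes mitochondrial DNA, was at 0.05 with T/5z, which did not pass, and at -0.41 with T/S/Z. Polrmt, the mitochondrial RNA polymerase, fell with T/S/Z to -0.89 ± 0.086 (SE, limma adjusted p = 5.76e-05) and was higher by 0.76 ± 0.067 (SE, limma adjusted p = 8.24e-05) when Nec-1s was added.

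The transcripts of mitochondrial DNA rose together with T/S/Z. All 11 tested were called higher, with a median of 1.18 (0.80 after quantile normalization, with 8 called). They ranged from 0.76 to 1.39, with the ribosomal RNA mt-Rnr2 at 1.39 ± 0.058 (SE, limma adjusted p = 8.19e-07) and mt-Cytb of complex III at 1.32 ± 0.095 (SE, limma adjusted p = 1.2e-05). With Nec-1s added, 10 of the 11 were called lower, with a median of -0.94. With T/5z the median was 0.40, 1 of 11 passed and 0 were called, with values from 0.02 to 0.58, and 8 were called higher with T/S/Z than with T/5z. Reads of these genes depend on how the libraries selected polyadenylated RNA, and their part in the shift of the upper percentiles was not tested.

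In astrocytes T/S/Z gave 1 called member of 62, lower (background 8.99% lower and 15.4% in both directions). At any fold 0 passed as higher and 11 as lower (13.5% and 26.9%), and 9 of the 11 encode complex I, which makes up 36 of the 62. The median was -0.08 over members and -0.11 over all 13842 genes tested. The called gene, Ndufc1, a small membrane-arm subunit, read 5.13, 6.13 and 5.55 in DMSO and 4.33, 4.96 and 5.41 with T/S/Z. The groups overlapped, the difference within pairs was -0.71 ± 0.17 (SE, limma adjusted p = 0.0165), and without the replicate block the adjusted p was 0.105. It was 0.192 without replicate 1 and 0.0573 without replicate 2.

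Other falls were smaller and mostly tighter. Ndufv3, a subunit of the NADH-oxidizing module, read 6.00, 5.87 and 5.85 in DMSO and 5.29, 5.44 and 5.58 with T/S/Z, without overlap, -0.47 ± 0.095 (SE, limma adjusted p = 0.00781). Ndufs4, an accessory subunit of the same arm that is mutated in Leigh syndrome, read 5.69, 6.20 and 5.99 and 5.29, 5.62 and 5.66, -0.44 ± 0.078 (SE, limma adjusted p = 0.00455). Its groups were separated by a narrow gap, and without the block its adjusted p was 0.0523. Ndufb10 read 6.41, 6.44 and 6.28 and 5.93, 5.89 and 6.06, also without overlap, -0.41 ± 0.085 (SE, limma adjusted p = 0.00857). Uqcrb of complex III read 7.38, 7.87 and 7.61 and 6.82, 7.07 and 7.51, overlapping, -0.48 ± 0.13 (SE, limma adjusted p = 0.0222). None of these 4 falls passed without replicate 1. Ndufa5, Ndufa4, Ndufv2, Ndufa8, Ndufb9 and Ndufs1 fell by 0.36, 0.31, 0.28, 0.26, 0.25 and 0.20.

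The astrocyte counts rested on few libraries. The fit without the block gave 3 lower members, that without replicate 1 gave 0, that without replicate 2 gave 7, and that without replicate 3 gave 10 lower and 3 higher. Fibroblast markers in the astrocyte libraries summed to 612 to 626 FPKM in DMSO, 112 to 125 with T/S/Z and 490 to 492 with T/S/Z/N, and microglial markers to 93.4 to 96.5, 58.2 to 60.3 and 83.1 to 89.8. Astrocyte markers summed to 3270 to 3292, 2871 to 3052 and 2919 to 2948. Oligodendrocyte lineage markers summed to 100.2 to 117 in DMSO, 60.3 to 86.9 with T/S/Z and 67.9 to 71.9 with T/S/Z/N, and the endothelial marker listed to 12.0 to 12.6, 2.62 to 3.27 and 8.66 to 9.86. The part of these marker changes in the members' falls was not tested. Here too, fewer cells of a type and less RNA per cell cannot be told apart.

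Complex II and Cox7a2l did not pass in astrocytes: Sdhb was at -0.20 ± 0.070 (SE, limma adjusted p = 0.0562), Sdha at -0.18, Sdhd at -0.08, Sdhc at 0.12 and Cox7a2l at -0.12 ± 0.071 (SE, limma adjusted p = 0.226). A p that misses the threshold does not show that they were unchanged. With Nec-1s added to T/S/Z, 0 members were called (background 3.10%) and 0 passed as higher and 1 as lower (4.05% and 3.77%). This was Cox8a, 7.35, 7.26 and 6.85 with T/S/Z and 6.79, 6.86 and 6.51 with T/S/Z/N, -0.43 ± 0.086 (SE, limma adjusted p = 0.0305), with 1 library of T/S/Z at the level of T/S/Z/N, and it lost the test without replicate 1 or 2. Against DMSO, T/S/Z/N had 0 called members (background 9.08%) with 0 higher and 8 lower at any fold (9.78% and 17.2%), and Ndufa8, Ndufb10, Ndufs4 and Ndufv3 were lower with T/S/Z, whether Nec-1s was present or absent (6.45% of members, against 20.7% of all genes changed in 1 direction in both). The rule for sensitivity to Nec-1s was met by 0 members in astrocytes, where it was met by 6.55% of all genes tested. Nec-1s alone changed 0 of 62 (background 0.0144%). Of 15 mitochondrially encoded genes 3 were called lower with T/S/Z, led by mt-Co2 (-1.02) and mt-Atp8 (-0.70). Among regulators Pprc1 was called higher by 0.70 ± 0.080 (SE, limma adjusted p = 0.000687) and Ppargc1a lower by -1.27 ± 0.12 (SE, limma adjusted p = 0.000303).

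Set side by side, 3 genes passed as higher with T/S/Z in microglia and lower in astrocytes: Uqcrb (0.34 and -0.48), Ndufs4 (0.26 and -0.44) and Ndufa4 (0.19 and -0.31), of which Ndufa4 turned to lower in microglia too after quantile normalization. Ndufb10 and Ndufv3 passed as lower in both. Of the members that passed in microglia but not in astrocytes 23 were higher and 5 lower, and 6 passed as lower in astrocytes alone. Of the 61 members tested in both tables, 4.92% were thus higher in microglia and lower in astrocytes, against 3.47% of the 9912 genes tested in both, and 3.28% were lower in both, against 13.8%. The shares that passed in microglia alone were 37.7% higher and 8.20% lower, against 18.1% and 24.5%, and the share lower in astrocytes alone was 9.84%, against 5.38%. All these shares belong to the deposited scale. Of the 26 members higher with T/S/Z in microglia on it, 14 turned to lower after quantile normalization. Whether the cell types differ was not tested, since the tables cannot be joined.

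**Figure D4:**
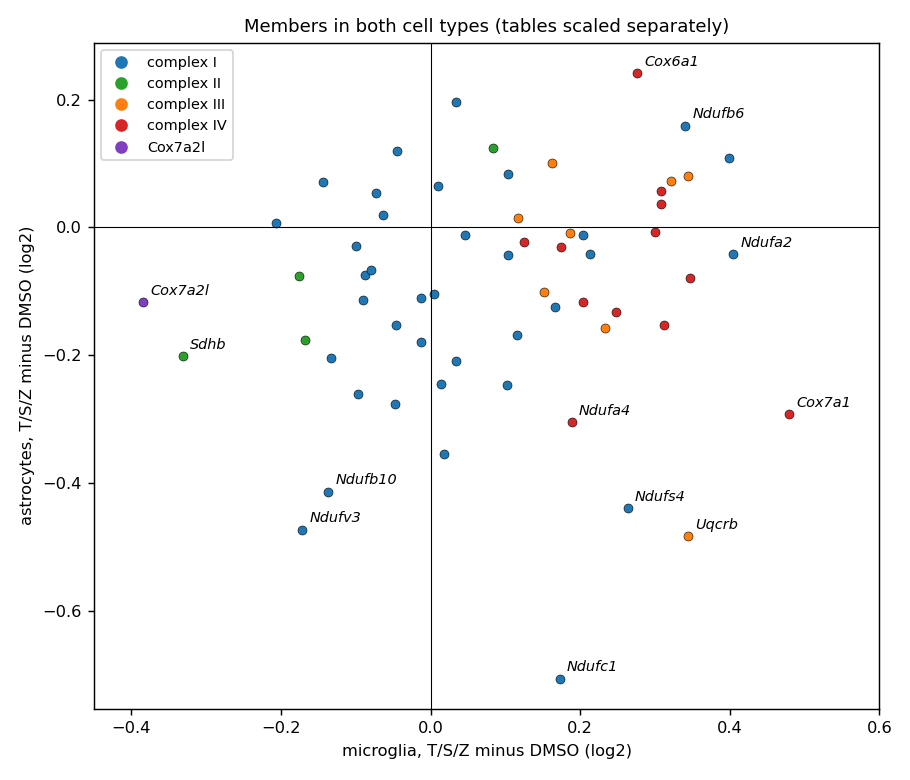
T/S/Z minus DMSO (log2) of the members tested in both cell types, with microglia on the x axis and astrocytes on the y axis, on separately scaled tables. Cox7a2l and Sdhb lie to the left in microglia, on either scaling, and Ndufc1, Ndufs4 and Uqcrb at the bottom in astrocytes, while the complex III and IV genes tested lie to the right on the deposited scale shown, where 19 of the 20 passed as higher and 13 of these turned to lower after quantile normalization.

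On the deposited scale, shorter transcripts tended to have larger T/S/Z changes in microglia. Across the 61 members Spearman's rho between annotated exon length and change was -0.32, against -0.13 across all genes tested, and it is a description, since genes share their libraries and length also sets the FPKM of each. After quantile normalization, an alternative added after the data were seen, the values were -0.10 and -0.05. The median exon length was 652 bases in complex IV, 955 in complex III, 967 in complex I and 2065.5 in complex II. In astrocytes the rho was -0.01. The part of transcript length in the differences between complexes was not tested.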

How the data were processed

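RNA from 24 microglial and 12 astrocyte libraries was sequenced by 2 different providers. The authors deposited 1 table per cell type of log2(FPKM + 1) values scaled to a common 75th percentile, made with OmicSoft Array Studio, and the genome build behind the tables was not given in the sources used here. Member coordinates in the astrocyte table equal GENCODE vM21 (GRCm38) for 62 of 62 genes, and 47 of 62 have the same start and end in both tables. The annotation marks 24 members in the microglial table and 27 in the astrocyte table as confounded, a term that is not defined there. The mean of each gene over replicates 1, 2 and 3 of the microglial table equals that of replicate 4 within 6.67e-05, and up to 1438 values per library are negative as a result.

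Groups were compared with limma 3.58.1 in R 4.3.3 (lmFit, eBayes with trend) on the 2 groups concerned, with the replicate number as a block, since replicates were separate litters and the study's own test was paired. Genes with a value of at least 1 in at least 4 (microglia) or 3 (astrocytes) libraries were tested, and p-values were adjusted over all of them by the Benjamini-Hochberg method. The interaction was fitted over the 4 stimulated groups. Deviations from group means of same-numbered libraries had a median correlation of -0.25 (-0.46 to 0.26) in microglia, where the shift to replicate 4 bears on it, and of 0.04 (-0.14 to 0.41) in astrocytes, and no 2 libraries were identical. The scripts were tested on simulated data.

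Depth was estimated from the spacing of low values as 39.73 to 42.34 M reads in astrocytes and 21.81 to 29.58 M in replicate 4 of microglia, where 60.0 to 66.2% and 60.7 to 62.4% of low values fell within 0.1 of a whole multiple (20% at random). Whole reads could not be recovered, and the depth of microglial replicates 1 to 3 is unknown, so no count test or counting interval was possible. Promoters come from RefSeq.

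The members and gene lists were chosen with earlier results of these data known. Named were every member called, the 3 largest rises and falls at any fold in each comparison, a fixed set of core members (1 is not reported here), and at most 2 called genes per list. Genes outside this rule were named from counts after their values were seen. Cox6a2, Ndufa4l2 and Cox4i2 are listed in 1 table only and were no members. Alternatives changed the added constant, filter, scaling, variance, block, fold minimum and replicates.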

Additional observations from a re-analysis of the deposited data

Results flagged for a closer look

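Among 216 groups of 4 microglial libraries examined, 9 held a library whose gap to its nearest neighbour was above Dixon's 95% critical share of the group's range, and about 10.8 are expected by chance. In DMSO these were Cox6b1 in replicate 3 (7.2506) and Uqcrfs1 in replicate 1 (5.5197), both below the other 3 libraries. In N they were Ndufs1 in replicate 3 (4.2692) and Ndufs4 in replicate 3 (3.7359). In T/5z they were Ndufb10 in replicate 1 (5.8265), Ndufs4 in replicate 1 (3.6343) and the median over all members in replicate 3 (5.9838). In T/5z/N the median over all members in replicate 2 (6.0763) stood apart, and in T/S/Z the median over complex III in replicate 4 (6.5944). The shift of replicates 1 to 3 to the mean of replicate 4 bears on these spreads.

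By the interaction term, adding Nec-1s moved 2 members to a different extent after T/5z than after T/S/Z, Uqcr11 (difference 0.24) and Cox6b1 (difference 0.23), with limma adjusted p of 0.0485 and 0.0383. Neither passed after quantile normalization or under every left-out replicate. By the same term 11.1% of all genes tested passed as higher. The DMSO library of Cox6b1 named above is not part of that fit.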

How the results depend on the processing

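Of 115 changes of single members that passed at any fold, 115 kept direction and call with either other added constant, 114 with a mean filter, 96 with no filter, 100 without the replicate block, 86 after median centring, 57 after quantile normalization, where 34 lost the test and 24 turned, and 39 with ordinary per-gene variance, which has few degrees of freedom. Without 1 replicate, 53 to 70 of 115, or 63 of 95 without replicate 4, kept theirs, with fewer pairs in each fit. In microglia the mean of each gene had already been made equal across replicates, so the fit without the block is no check on the pairing there.

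Over all 61 members tested, quantile normalization turned the sign of 22 changes with T/5z, 27 with T/S/Z, 13 for T/5z/N against T/5z and 23 for T/S/Z/N against T/S/Z, of which 14, 8, 12 and 14 passed on neither scale. Those turned that had passed as deposited, or that belong to the fixed set of named members and passed on either scale, were as follows. With T/5z they were Cox4i1 at -0.21, Cox5a at -0.042, Cox6a1 at -0.052, Cox6c at -0.097, Ndufa4 at -0.040 and Uqcrc1 at -0.056. With T/S/Z they were Cox4i1 at -0.31, Cox5a at -0.22, Cox6a1 at -0.19, Cox6b1 at -0.21, Cox6c at -0.14, Cox7c at -0.12, Cox8a at -0.17, Ndufa1 at -0.052, Ndufa4 at -0.11, Uqcr11 at -0.088, Uqcrc1 at -0.11, Uqcrc2 at -0.032, Uqcrh at -0.12 and Uqcrq at -0.0034. With Nec-1s after T/5z it was Uqcrc1 at 0.094, and after T/S/Z Cox4i1 at 0.24, Cox5a at 0.18, Cox6b1 at 0.035, Cox8a at 0.13, Uqcrb at 0.015, Uqcrc1 at 0.13 and Uqcrh at 0.031. Between T/S/Z and T/5z it was Cox8a at -0.024.

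Quantile normalization also moved the members' median to -0.12 with T/5z, -0.13 with T/S/Z and 0.13 for T/5z/N against T/5z, and gave 1 called member with T/5z, 3 with T/S/Z and 1 for T/5z/N against T/5z. Median centring moved the T/S/Z median to 0.20. Without the 1.5-fold minimum the called members were 20 with T/5z, 33 with T/S/Z, 9 for T/5z/N against T/5z, 16 for T/S/Z/N against T/S/Z, 5 and 1 for these against DMSO, 9 between the stimuli, 2 for the interaction, and in astrocytes 11 with T/S/Z, 1 for T/S/Z/N against T/S/Z and 8 against DMSO. The 1 called member of astrocytes with T/S/Z became 0 without the replicate block, 0 with ordinary variance and 0 at 2-fold. Leaving out 1 replicate gave 0 to 1 called members for microglia with T/S/Z, 0 to 2 for astrocytes with T/S/Z, 0 to 2 for astrocyte T/S/Z/N against T/S/Z and 0 to 1 against DMSO. Without the replicate block, 14 members were higher and 9 lower at any fold with T/5z and 26 and 9 with T/S/Z. The cause of these differences was not tested, except that fewer pairs or a looser threshold change a count by construction.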

Other observations

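Further genes with names of the same series, Cox6a2, Ndufa4l2 and Cox4i2, were listed in 1 table only. Cox6a2, the muscle form of a complex IV subunit, averaged 1.12 in DMSO microglia and was at -0.10 with T/5z (limma adjusted p = 0.483) and 0.09 with T/S/Z (limma adjusted p = 0.47). In astrocytes with T/S/Z, Ndufa4l2, known from hypoxia, was at -0.35 (limma adjusted p = 0.0827) and Cox4i2, an isoform also tied to low oxygen, at 0.23 (limma adjusted p = 0.33).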
